A study of Mus musculus with 15 samples.

Results

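The 9 hematopoietic cytokine receptor genes Kit, Flt3, Csf3r, Csf2rb, Csf2rb2, Csf2ra, Epor, Il6ra and Il6st were followed in LSK cells, which are marrow cells without lineage markers that carry Sca-1 and c-Kit and include the hematopoietic stem cells and multipotent progenitors. They were chosen by name, and all 9 were found among the 45232 gene IDs of the count table by matching IDs to mouse symbols. All 9 also passed the filter on low counts, which left 17834 genes for testing. RNA was sequenced from sorted CD45.2+ LSK cells of C57BL/6 mice in 5 groups of 3 libraries each. One group was WT, and the labels name no drug for it. The other 4 groups came from recipients of bone marrow with conditional mutant Jak2 and Idh2 alleles, induced with Mx1-Cre, a recombinase driven by an interferon-responsive promoter, and mixed with CD45.1 WT marrow at transplantation. Recipients received vehicle, AG221 (an inhibitor of mutant IDH2, 40 mg per kg), ruxolitinib (a JAK1/JAK2 inhibitor, 60 mg per kg) or combined treatment, by gavage over a course of 21 to 28 days. The study asked how the mutant cells differed from WT cells and whether the inhibitors changed this.

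Cytokine receptors set which outside signals a progenitor can answer. Kit and Flt3 are receptor tyrosine kinases for stem cell factor and FLT3 ligand. The others carry no kinase of their own and signal through bound JAK kinases. Epor and Csf3r work as pairs of identical chains that depend on JAK2 and JAK1/JAK2. The GM-CSF and interleukin-6 receptors join a ligand-binding chain (Csf2ra, Il6ra) to a signaling chain (Csf2rb, the common beta chain shared with interleukin-3 and interleukin-5, and Il6st, which encodes gp130). Mice have an additional beta chain gene, Csf2rb2, whose product serves interleukin-3 alone. JAK2 is the kinase bound by the beta chains. In marrow, Flt3 marks multipotent progenitors with lymphoid potential, Epor the erythroid lineage and Csf3r the granulocytic lineage.

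Because Csf2rb and Csf2rb2 are near-identical neighbors on chromosome 15, their sequences are shown first, as they set how far reads can tell them apart. Csf2rb (ENSMUSG00000071713) lies on the plus strand at chr15:78325752-78353847 of GRCm38 and Csf2rb2 (ENSMUSG00000071714) on the minus strand at chr15:78282507-78305721. Their coding sequences of 2691 and 2637 bases (transcripts Csf2rb-206 and Csf2rb2-201 of GENCODE M21) were 92.88% identical in alignment, with 126 mismatches, 66 gap columns and a longest identical run of 242 bases. Of all 50-base words in their transcripts, the length of 1 read of a pair in this study, 12.3% of the Csf2rb words and 18.9% of the Csf2rb2 words also occurred in another gene, and 892 words occurred in both. The 120 coding bases with the most mismatches (22) and the first 120 coding bases (4 mismatches) are given 5′ to 3′ with mismatched bases in capitals, and each stretch spans 2 exons.
Csf2rb, coding bases 309 to 428, chr15:78338898-78340471, plus strand: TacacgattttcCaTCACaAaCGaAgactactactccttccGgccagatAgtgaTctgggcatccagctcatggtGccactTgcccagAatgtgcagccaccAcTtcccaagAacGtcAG
Csf2rb2, coding bases 312 to 431, chr15:78292838-78294433, minus strand: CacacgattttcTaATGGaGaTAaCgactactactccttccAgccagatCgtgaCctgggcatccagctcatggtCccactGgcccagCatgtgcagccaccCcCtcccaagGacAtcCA
Csf2rb, coding bases 1 to 120, chr15:78335207-78336379, plus strand: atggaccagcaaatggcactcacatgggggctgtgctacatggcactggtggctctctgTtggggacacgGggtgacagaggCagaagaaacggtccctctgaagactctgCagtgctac
Csf2rb2, coding bases 1 to 120, chr15:78297071-78298229, minus strand: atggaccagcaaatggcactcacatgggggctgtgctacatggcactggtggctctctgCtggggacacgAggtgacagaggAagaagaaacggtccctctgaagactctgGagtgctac

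The divergent stretch can assign reads to 1 gene, whereas read pairs that lie wholly within an identical run cannot be assigned. The words describe single reads, and a mate on a mismatched base can still place its pair. Values of both genes are therefore uncertain for pairs wholly within such a run, and the sum of their counts is given below. Of the other members, Csf3r shared 10.7% of its 50-base words with other genes and Il6ra shared 2.29%, all of them with Gm42809, an antisense gene that overlaps 2.8% of Il6ra exons. For Flt3 this share was 0.049% and for Kit, Csf2ra, Epor and Il6st it was 0.

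RefSeq promoters (GRCm38.p6, 250 bases before to 50 after the start) matched 8 of the 9 members, Csf2rb being the exception. They were searched on both strands for TTCNNNGAA (a STAT element, in 8.3% of all 32851 promoters), TGANTCA (AP-1, 7.81%), GATAA (GATA factors, 25.4%) and GAGGAA (PU.1, 28.3%). A STAT match occurred in 1 of the 8, Csf2rb2, and none of the 8 held an AP-1 match. The GATAA letters occurred in Csf2rb2, Epor and Il6ra, and the GAGGAA letters in Kit, Csf3r, Csf2rb2, Csf2ra and Il6ra. Flt3 and Il6st held none of the 4 motifs. The 250 upstream bases of Csf2rb2, as the sole one of the 8 with the STAT letters, and of Epor, a textbook GATA target, are given 5′ to 3′ along the gene with matches on either strand in capitals.
Csf2rb2, chr15:78305722-78305971, minus strand: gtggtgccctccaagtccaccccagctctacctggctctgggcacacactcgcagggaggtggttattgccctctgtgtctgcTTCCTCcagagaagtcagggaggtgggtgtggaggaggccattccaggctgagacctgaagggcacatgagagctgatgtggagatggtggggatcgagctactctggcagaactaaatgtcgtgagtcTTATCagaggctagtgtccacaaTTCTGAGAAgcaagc
Epor, chr9:21963577-21963826, minus strand: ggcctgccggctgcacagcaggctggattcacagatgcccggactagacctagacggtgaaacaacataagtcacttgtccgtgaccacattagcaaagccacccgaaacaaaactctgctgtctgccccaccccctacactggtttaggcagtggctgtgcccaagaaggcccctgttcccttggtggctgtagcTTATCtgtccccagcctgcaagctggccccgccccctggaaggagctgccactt

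In the Csf2rb2 promoter the capitals mark PU.1, GATA and STAT letters in that order, and in the Epor promoter GATA letters. A match describes letters in this window and is no evidence of binding.

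Depth ranged from 18836625 to 32174287 counts per library (median 25545779), and 3 counts, taken as the floor, equaled 0.0957 to 0.157 CPM (a gene's counts relative to the TMM-scaled library total), below every value of the 9 members. The letter A opens the replicate names of vehicle, AG221 and ruxolitinib libraries, and B those of combined and WT libraries, so that any difference between an A and a B group cannot be told apart from what the letter stands for, which the labels do not state. Xist was at 455 to 511 CPM in WT and at most 19.5 CPM elsewhere, and Ddx3y was at most 0.101 CPM in WT and at least 124 CPM elsewhere, so that sex cannot be told apart from genotype in any comparison with WT. WT libraries also detected more genes, with 17292 to 21689 genes at 10 counts or more against 14627 to 15709 in the other groups. Libraries AG221 A8, AG221 A10 and ruxolitinib A16 had the lowest correlations between gene GC content and each gene's deviation from its mean over all libraries (-0.27, -0.21 and -0.13, against -0.06 to 0.20 in the other 12).

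As a check on the sort, Kit was the member with the highest CPM in every library, Ly6a (Sca-1) averaged 71.1 ± 10.6 CPM in WT and 83.6 ± 77.1 CPM with vehicle, and Ptprc (CD45) 428 and 549 CPM. Of these 3 genes, 1 other than Kit was called lower in combined against vehicle, and likewise 1 in combined against AG221 (edgeR). Of all genes, 12.5% and 33.2% were called in these comparisons. The summed level of 13 neutrophil genes, among them Mpo and Elane, was 3500.4 to 3860 CPM in WT and 17491 to 20615 CPM with AG221. Which cells held this RNA was not tested.

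Per kilobase of exon, which allows genes to be compared, Kit was the most abundant member in WT LSK cells at 153 ± 18.7 CPM per kb, followed by Flt3 at 92.5 ± 7.49 and Csf3r at 74.4 ± 11.5 (SD, n = 3 each). Csf2ra stood at 22.6 ± 1.99 CPM per kb, and Epor, Csf2rb and Il6st between 5.30 and 7.74. Il6ra at 1.62 ± 0.296 and Csf2rb2 at 1.35 ± 0.205 CPM per kb were the lowest. With vehicle, Csf2rb reached 25.997 ± 5.36 CPM per kb, Epor 17.7 ± 7.96 and Csf2ra 12.9 ± 5.19, whereas Flt3 stood at 23.3 ± 8.45.

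**Figure D1:**
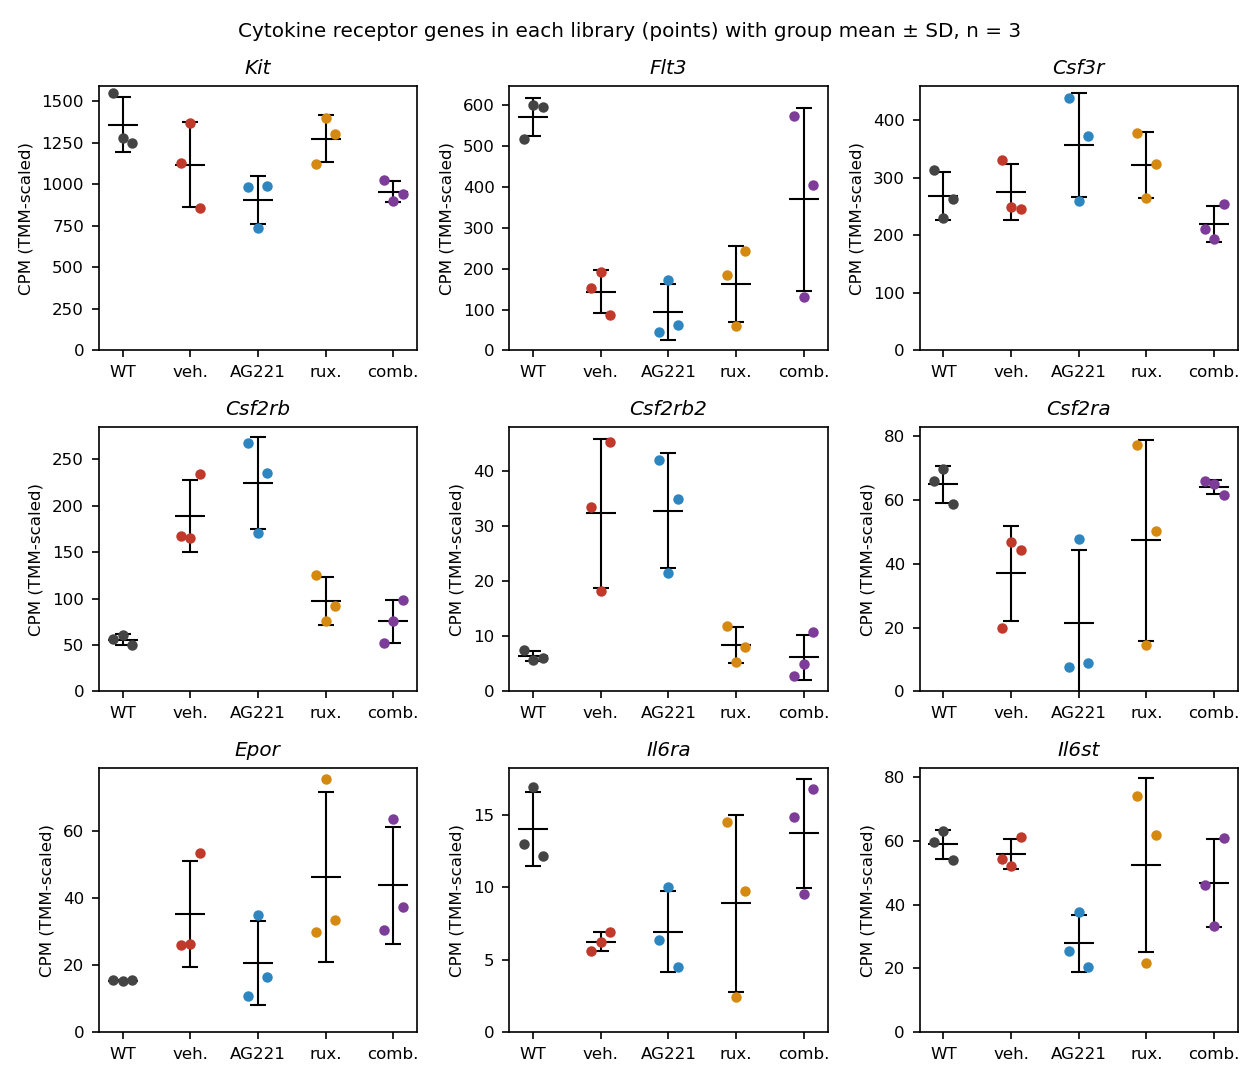
Level of each member in CPM (vertical axes, from 0) in every library of the 5 groups (horizontal axes), with points for libraries and bars for the group mean ± SD (n = 3). Csf2rb and Csf2rb2 are high with vehicle and AG221 and low in the other 3 groups, and Flt3 is highest in WT at 518 to 600.4 CPM.

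Relative to WT, vehicle-treated mutant LSK cells had more RNA of both beta chain genes and less Flt3. These were the 3 of 9 members that passed an adjusted p-value of 0.05 (edgeR quasi-likelihood test, Benjamini-Hochberg over all 17834 genes), 2 higher and 1 lower, beside 33.3% of all genes tested (15.4% higher and 17.9% lower), and 5 had an unadjusted p under 0.05 beside 46.1% of all genes. The members' share was thus the same as the background, and their median log2 fold change of -0.07 was close to the -0.09 of all tested genes. The groups did not overlap for 6 members and for 56.9% of all genes. P-values measure the spread between libraries only, and the labels do not state that each library came from a separate mouse.

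Csf2rb, the signaling chain for GM-CSF, interleukin-3 and interleukin-5, was at 56.8, 60.9 and 49.96 CPM in WT and at 168, 166 and 234 CPM with vehicle. AG221 libraries held 268, 171 and 235 CPM, ruxolitinib libraries 126, 75.6 and 91.5 CPM and combined libraries 52.6, 75.5 and 98.9 CPM. All 6 vehicle and AG221 libraries were thus above all 9 others. Csf2rb was 3.38-fold higher with vehicle than in WT (log2 fold change 1.76, standard error 0.256, edgeR adjusted p = 0.000963) and 4.02-fold higher with AG221 than in WT (log2 2.01, standard error 0.258, edgeR adjusted p = 0.000181). With combined treatment it was 2.5-fold lower than with vehicle (log2 -1.32, standard error 0.253, edgeR adjusted p = 0.00521). These calls held when any 1 library was left out. Against AG221, combined treatment gave log2 -1.57 for Csf2rb and -2.40 for Csf2rb2 (edgeR adjusted p = 0.00227 and 0.00374).

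Csf2rb2, the beta chain particular to interleukin-3, was at 7.51, 5.70 and 6.00 CPM in WT and 33.3, 18.3 and 45.2 CPM with vehicle. The values were 42.0, 21.5 and 34.8 CPM with AG221, 11.9, 5.38 and 8.06 CPM with ruxolitinib, and 2.82, 5.05 and 10.7 CPM with combined treatment. The same 6 libraries were again above the other 9. Csf2rb2 was 5.04-fold higher with vehicle than in WT (log2 2.33, standard error 0.47, edgeR adjusted p = 0.00533), and 5.2-fold lower with combined treatment than with vehicle (log2 -2.38, standard error 0.472, edgeR adjusted p = 0.0059). The summed counts of both genes gave log2 1.83 for vehicle against WT and -1.44 for combined against vehicle (edgeR adjusted p = 0.00107 and 0.00474). Both calls thus held for the sum, which consists mostly of Csf2rb counts and cannot recover reads counted for neither gene.

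Combined treatment and vehicle differ in the replicate letter, while ruxolitinib and vehicle share it. Within letter A, Csf2rb was 1.94-fold lower with ruxolitinib than with vehicle (log2 -0.95, standard error 0.251) and Csf2rb2 3.82-fold lower (log2 -1.93, standard error 0.463), in both cases with no overlap between the groups. These were the 2 members with an unadjusted p under 0.05, beside 4.56% of all genes. Neither passed adjustment over all genes (edgeR unadjusted p = 0.00203 and 0.001, adjusted p = 0.575 and 0.41), and DESeq2 called Csf2rb2 alone (adjusted p = 0.0175). Groups did not overlap for 2 of 9 members here and for 8.17% of all genes tested. Only 3 genes, 0.0168% of those tested, were called between ruxolitinib and vehicle. Ruxolitinib libraries remained 1.75-fold above WT for Csf2rb (log2 0.80, standard error 0.251, edgeR adjusted p = 0.0285). That call was lost under upper quartile normalization (adjusted p = 0.0514) and without ruxolitinib A14 or any 1 WT library.

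The proportion of the 2 beta chain genes varied between groups. There were 7.57, 10.7 and 8.32 Csf2rb counts per Csf2rb2 count in WT, 5.03, 9.06 and 5.18 with vehicle, and 6.37, 7.96 and 6.74 with AG221. The ratio was 10.5, 14.05 and 11.4 with ruxolitinib and 18.7, 15.0 and 9.22 with combined treatment, so that all 6 libraries with ruxolitinib in the treatment were above all 6 libraries of mutant cells without it, although the nearest of them, combined B26 and vehicle A3, lay close together at 9.22 and 9.06.

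Mast cell and basophil genes, which belong to cells known for strong interleukin-3 responses, moved with the beta chains in part. Of 10 genes on this list, 7 were called higher with vehicle than in WT and 3 lower with combined treatment than with vehicle, while 3 were still called higher with combined treatment than in WT. The shares of all genes called in these directions were 15.4%, 4.21% and 1.63%. Their summed level was 109 to 197 CPM in WT, 733 to 1195 CPM with vehicle, 737 to 896 CPM with AG221, 437 to 519 CPM with ruxolitinib and 307 to 532 CPM with combined treatment, and none of the list was at 0 throughout a group. Cpa3, the mast cell carboxypeptidase, was at 42.7 ± 10.6 CPM in WT, 327 ± 107 CPM with vehicle and 176 ± 27.6 CPM with combined treatment (SD, n = 3 each). In bulk RNA, fewer cells of a type and less RNA per cell cannot be told apart, and the part of these cells in the beta chain levels was not tested. Immediate early genes, which respond to signaling and to cell handling, moved more widely. Of 16 on the list, 13 were called higher with vehicle than in WT (median log2 3.602, against -0.09 for all genes) and 12 lower with combined treatment than with vehicle (median -3.73, against 0.04). Beside these, 15.4% and 4.21% of all genes were called in the same directions. Their summed level was 883 to 1211 CPM in WT, 7637 to 16290 CPM with vehicle, 4660 to 6205 CPM with AG221, 4918 to 10094 CPM with ruxolitinib and 814 to 1428 CPM with combined treatment, so that ruxolitinib libraries were high for these genes and low for the beta chains. All libraries of letter A were at 4660 CPM or more for this sum and all of letter B at 1428 CPM or less. The 13 and 12 calls thus cannot be told apart from what the letter stands for. The part of immediate early genes in the beta chain levels was not tested.

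Csf2ra, the GM-CSF binding chain that pairs with Csf2rb, did not follow it. It was at 66.1, 69.9 and 58.7 CPM in WT, 19.96, 47.0 and 44.3 CPM with vehicle and 65.9, 65.0 and 61.5 CPM with combined treatment. The other libraries ran from 7.57, 47.8 and 9.06 CPM with AG221 to 77.4, 14.4 and 50.3 CPM with ruxolitinib. Vehicle libraries were all below the WT and combined libraries, while AG221 A8, A10 and ruxolitinib A16 were the 3 lowest of all. No comparison of Csf2ra passed the threshold, the nearest being AG221 against WT (log2 -1.60, standard error 0.653, edgeR adjusted p = 0.055). Csf2ra has the highest GC content of the members (62.18%), and with GC content offsets, which were tried once the data had been seen, this difference was -0.61 (edgeR adjusted p = 0.147). Without AG221 A9 it was -2.95 (edgeR adjusted p = 0.000859), so that 1 library decided the call.

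The ratio of Csf2rb to Csf2ra per kb of exon differed accordingly. It was 0.339, 0.343 and 0.336 in WT and 0.315, 0.458 and 0.634 with combined treatment, that is, more binding than signaling chain RNA in all 6 libraries. It was 3.31, 1.39 and 2.08 with vehicle, and 13.96, 1.41 and 10.2 with AG221. Ruxolitinib libraries held 0.641, 2.07 and 0.717, and the high one is A16, where Csf2ra was low.

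Flt3, the FLT3 ligand receptor of early lymphoid and multipotent progenitors, was called lower than WT in 3 of the 4 mutant groups. It was at 518, 600.4 and 596 CPM in WT and at 154, 191 and 87.8 CPM with vehicle. AG221 libraries held 46.2, 173 and 63.4 CPM, ruxolitinib libraries 186, 59.5 and 243 CPM and combined libraries 575, 131 and 405 CPM. The 9 libraries of the vehicle, AG221 and ruxolitinib groups were all below WT, and 2 of 3 combined libraries were above those 9. Flt3 was 3.97-fold lower with vehicle than in WT (log2 -1.99, standard error 0.605, edgeR adjusted p = 0.0252), a call lost without vehicle A1, vehicle A4 or WT B30 (adjusted p up to 0.0856). It was 6.08-fold lower with AG221 than in WT (log2 -2.60, standard error 0.62, edgeR adjusted p = 0.00463), which became log2 -3.37 without AG221 A9 and was not called when AG221 A8, AG221 A10 and ruxolitinib A16 were all left out (log2 -1.73, edgeR adjusted p = 0.106). With ruxolitinib it was 3.51-fold lower (log2 -1.81, standard error 0.602, edgeR adjusted p = 0.036). The ruxolitinib call was lost without any 1 WT library or without ruxolitinib A14 or A16.

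The mean of Flt3 was 144 ± 52.2 CPM for vehicle and 370.0 ± 224 CPM for the combination (SD, 3 libraries each), but the groups overlapped through combined B25 and the difference was not called (log2 1.36, standard error 0.594, edgeR adjusted p = 0.161). Against AG221 it was called (log2 1.98, standard error 0.606, edgeR adjusted p = 0.0241), with overlapping libraries, and this call was lost without AG221 A8, AG221 A10, combined B24 or combined B26. B-lineage genes moved alongside in part. Their summed level over 11 genes was 404 to 487 CPM in WT, 58.5 to 248.7 CPM with vehicle, 155 to 185 CPM with AG221 and 99.3 to 154 CPM with ruxolitinib, and it was 492 CPM in combined B24, 383 CPM in B26 and 53.5 CPM in B25, the combined library in which Flt3 was low. Within AG221, however, A9 held the most Flt3 and the lowest sum, and within vehicle, A3 held the most Flt3 and A1 the highest sum. Of the 11 genes, 6 were called lower with vehicle than in WT and none with combined treatment against vehicle (edgeR, 3 at an unadjusted p under 0.05). Of all genes, 17.9% were called lower in the first comparison. In the second, 12.5% were called and 26.4% had an unadjusted p under 0.05. The part of B-lineage genes in the Flt3 levels was not tested.

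Kit, the stem cell factor receptor, was lower with AG221 than in WT, though not under every alternative. Its protein was a gate of the sort, so that its RNA describes cells already chosen for c-Kit. Kit was at 1552, 1279 and 1251 CPM in WT, 1130.1, 1369.7 and 859 CPM with vehicle, 984, 739.8 and 992 CPM with AG221, 1120.1, 1402 and 1306 CPM with ruxolitinib and 1025, 901 and 940.4 CPM with combined treatment. AG221 and combined libraries were all below WT, and the other groups overlapped it. Kit was 1.50-fold lower with AG221 than in WT (log2 -0.59, standard error 0.173, edgeR adjusted p = 0.0134), but with GC content offsets the difference was -0.19 (adjusted p = 0.424), and the call was also lost without WT B28, under upper quartile normalization and in a fit of those groups alone. For combined treatment against WT the difference was -0.51 (standard error 0.173, edgeR adjusted p = 0.0991).

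Among the homodimeric receptors, Epor was called higher with ruxolitinib than in WT, and Csf3r was called lower with combined treatment than with AG221. Epor, the erythropoietin receptor, was at 15.5, 15.2 and 15.5 CPM in WT. It was at 25.9, 26.4 and 53.5 CPM with vehicle, 30.002, 75.3 and 33.4 CPM with ruxolitinib and 30.5, 63.5 and 37.2 CPM with combined treatment, all above WT. AG221 libraries, at 10.7, 34.8 and 16.4 CPM, overlapped it. The ruxolitinib difference from WT was called (3.002-fold, log2 1.59, standard error 0.468, edgeR adjusted p = 0.023), whereas vehicle (log2 1.19, adjusted p = 0.0618) and combined treatment (log2 1.51, adjusted p = 0.0792) missed the threshold. Ruxolitinib A16 decided that call, which fell to log2 1.09 without it (edgeR adjusted p = 0.0984), and the call was lost without any 1 WT library as well.

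Erythroid genes moved partly with Epor. The summed level of 13 erythroid genes was 1740 to 1899 CPM in WT and 7667 CPM in ruxolitinib A16, the library with the most Epor, against 2512 and 2537 CPM in A14 and A17. In combined B25, the highest of its group for Epor, it was 4003 CPM against 2320 and 2328 CPM. In AG221 A8 and A10 the sum was 4061 and 4130 CPM although Epor was at 10.7 and 16.4 CPM. Of the 13 genes, 10 were called higher with ruxolitinib than in WT, 10 with AG221, where Epor overlapped WT, and 6 with vehicle. Beside these, 16.1%, 22.2% and 15.4% of all genes were called higher. Epor has a GC content of 60.04%, and with GC content offsets the vehicle difference was log2 1.71 (edgeR adjusted p = 0.00967). The part of erythroid cells and of GC content was not tested beyond these values.

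Csf3r, the G-CSF receptor of the granulocytic lineage, was at 313, 230.2 and 263 CPM in WT and 331, 248 and 246 CPM with vehicle. It was at 438, 259.8 and 371 CPM with AG221, 378, 264 and 324 CPM with ruxolitinib and 210.3, 193 and 255 CPM with combined treatment. Every AG221 and ruxolitinib library was above every combined library. Csf3r was 1.62-fold lower with combined treatment than with AG221 (log2 -0.70, standard error 0.207, edgeR adjusted p = 0.0207), a call lost without AG221 A8, AG221 A10, combined B24 or combined B25. Against ruxolitinib the difference was log2 -0.55 (standard error 0.207, edgeR adjusted p = 0.105). The sum of 13 neutrophil genes was 17491 to 20615 CPM with AG221, 12257 to 19479 CPM with ruxolitinib, 4322 to 7759 CPM with combined treatment and 7872 to 12941 CPM with vehicle, and 10 of the 13 were called lower with combined treatment than with AG221. Of all genes, 14.3% were called lower in that comparison. The part of the neutrophil genes in the Csf3r levels was not tested.

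The interleukin-6 receptor chains differed in which group stood apart. Il6ra, the binding chain, was at 12.95, 16.9 and 12.1 CPM in WT, 5.60, 6.22 and 6.91 CPM with vehicle and 14.8, 9.54 and 16.8 CPM with combined treatment. AG221 libraries held 6.37, 9.99 and 4.47 CPM and ruxolitinib libraries 14.5, 2.44 and 9.74 CPM. The vehicle libraries were thus all below WT and combined libraries, but neither difference passed adjustment (vehicle against WT, log2 -1.16, standard error 0.474, edgeR adjusted p = 0.0722, and combined against vehicle, log2 1.13, standard error 0.475, edgeR adjusted p = 0.143). With DESeq2 the first had an adjusted p of 0.0496.

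Il6st, which encodes gp130, was at 59.5, 63.0 and 54.0 CPM in WT and 54.4, 51.9 and 61.2 CPM with vehicle. It was at 25.5, 37.7 and 20.4 CPM with AG221, 73.9, 21.6 and 61.6 CPM with ruxolitinib and 46.2, 33.2 and 60.8 CPM with combined treatment. All AG221 libraries were below all WT and vehicle libraries. Il6st was 2.11-fold lower with AG221 than in WT (log2 -1.08, standard error 0.363, edgeR adjusted p = 0.0249), which was no longer called with GC content offsets (log2 -0.67, adjusted p = 0.113) or without AG221 A8, AG221 A10, WT B28 or WT B30. Against vehicle the difference was log2 -1.004 (standard error 0.362, edgeR adjusted p = 0.12), and without AG221 A9 it was -1.29 (adjusted p = 0.0313).

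Set against each other within a library, there was more gp130 than binding chain RNA everywhere, but in differing measure. The ratio of Il6st to Il6ra per kb was 7.56, 6.501 and 6.90 with vehicle, 3.57, 2.90 and 3.46 in WT, 3.12, 2.94 and 3.54 with AG221 and 2.43, 2.71 and 2.82 with combined treatment. Ruxolitinib libraries were spread at 3.96, 6.91 and 4.93. The vehicle libraries did not overlap with WT, AG221 or combined libraries. The ratios are given as a description, and their differences were not tested.

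**Figure D2:**
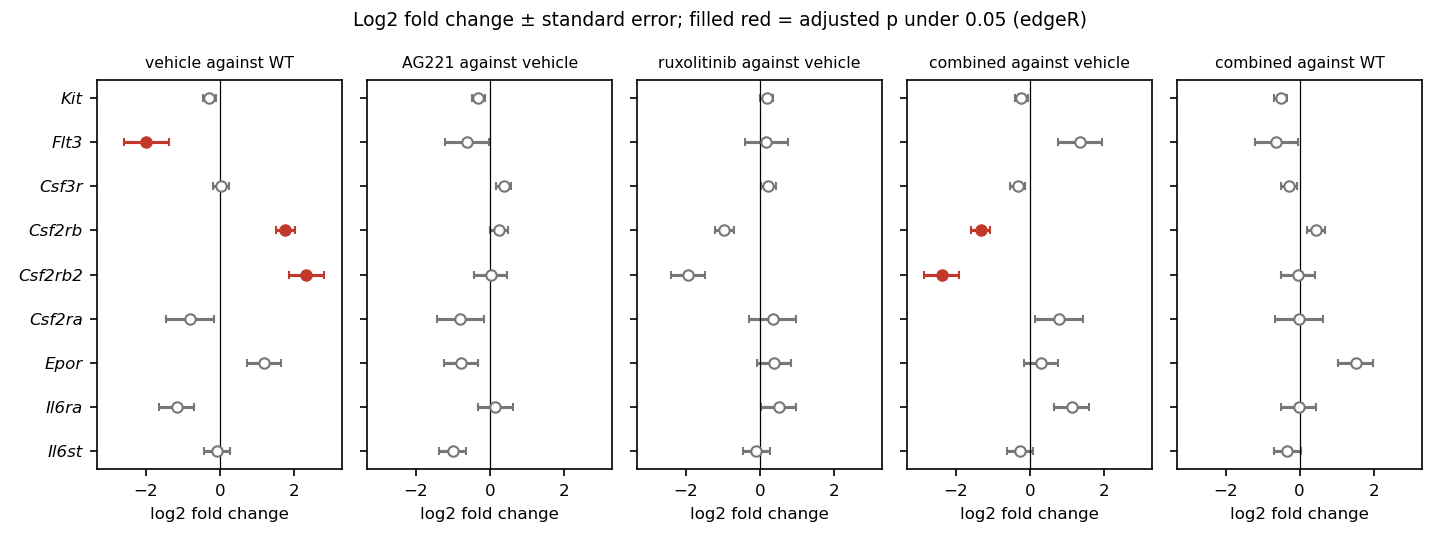
Log2 fold change (horizontal axes) with its standard error for each member in 5 comparisons, fitted across all 15 libraries, with filled red points for an adjusted p-value under 0.05 in the edgeR test. Flt3, Csf2rb and Csf2rb2 are called in vehicle against WT, Csf2rb and Csf2rb2 in combined against vehicle, and none of the 9 in the other 3 panels.

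Over all 9 members, 5 were called in AG221 against WT (2 higher and 3 lower, beside 50.7% of all genes tested, 22.2% higher and 28.5% lower). In ruxolitinib against WT 3 were called (2 higher and 1 lower, beside 32.3%, 16.1% higher and 16.2% lower). At an unadjusted p under 0.05 there were 6 with AG221 beside 58.1% of all genes and 3 with ruxolitinib beside 45.7%. The groups did not overlap for 7 members with AG221, beside 61.3% of all genes, and for 3 with ruxolitinib, beside 58.1%. None was called in combined against WT by edgeR, where 2 had an unadjusted p under 0.05 (25.4% of all genes), DESeq2 called 1 (Epor, adjusted p = 0.021) and 3.25% of all genes were called (1.63% higher and 1.61% lower). The groups did not overlap for 2 members and for 41.6% of all genes. With combined treatment 2 members were called relative to vehicle, both lower (12.5% of all genes, 8.28% higher and 4.21% lower), with 4 at an unadjusted p under 0.05 (26.4%) and 4 without overlap (34.7%). Relative to AG221, 4 were called with combined treatment, of which 1 was higher and 3 lower (33.2% of all genes, 18.9% higher and 14.3% lower), with 6 at an unadjusted p under 0.05 (44.4%) and 4 without overlap (44.6%). These comparisons share libraries and are not independent of each other, and combined treatment differs from vehicle and AG221 in the replicate letter as well. For AG221 against vehicle edgeR and DESeq2 called none (1 at an unadjusted p under 0.05, beside 25.2% of all genes, and 1 without overlap, beside 20.0%), where 0.987% of all genes were called, 0.471% higher and 0.516% lower. For combined against ruxolitinib both called none (2 at an unadjusted p under 0.05, beside 25.4%, and 2 without overlap, beside 35.5%), where 12.4% of all genes were called, 8.50% higher and 3.94% lower.

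Whether AG221 acted differently with and without ruxolitinib was tested as an interaction. No member passed by edgeR (2 at an unadjusted p under 0.05, beside 32.0%, with 8.42% of all genes called, 5.60% higher and 2.82% lower), and DESeq2 called 1. Csf3r came nearest, with an interaction of log2 -0.93 (standard error 0.292, edgeR adjusted p = 0.0601, DESeq2 adjusted p = 0.0204). For Flt3 the interaction was log2 1.80 (standard error 0.833, edgeR adjusted p = 0.154). Without AG221 A9, 3 members were called.

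Csf2ra, Flt3 and Il6st were lowest or near lowest in the 3 libraries with the lowest GC content correlation. In AG221 A8, AG221 A10 and ruxolitinib A16, Csf2ra was at 7.57, 9.06 and 14.4 CPM and Flt3 at 46.2, 63.4 and 59.5 CPM, against at least 19.96 and 87.8 CPM in the other 12. Il6st in these 3 was at 20.4 to 25.5 CPM and at least 33.2 CPM elsewhere. Without them, a choice made with the data in view, the AG221 group is 1 library that is assumed to vary like the other groups, so that calls can be lost through its size alone. In that fit 2 members were called for AG221 against WT (Kit and Csf2rb), none of the 9 was called for combined treatment against AG221, and 6 were called for vehicle against WT. The part of GC content in these members was not tested beyond these values.

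**Figure D3:**
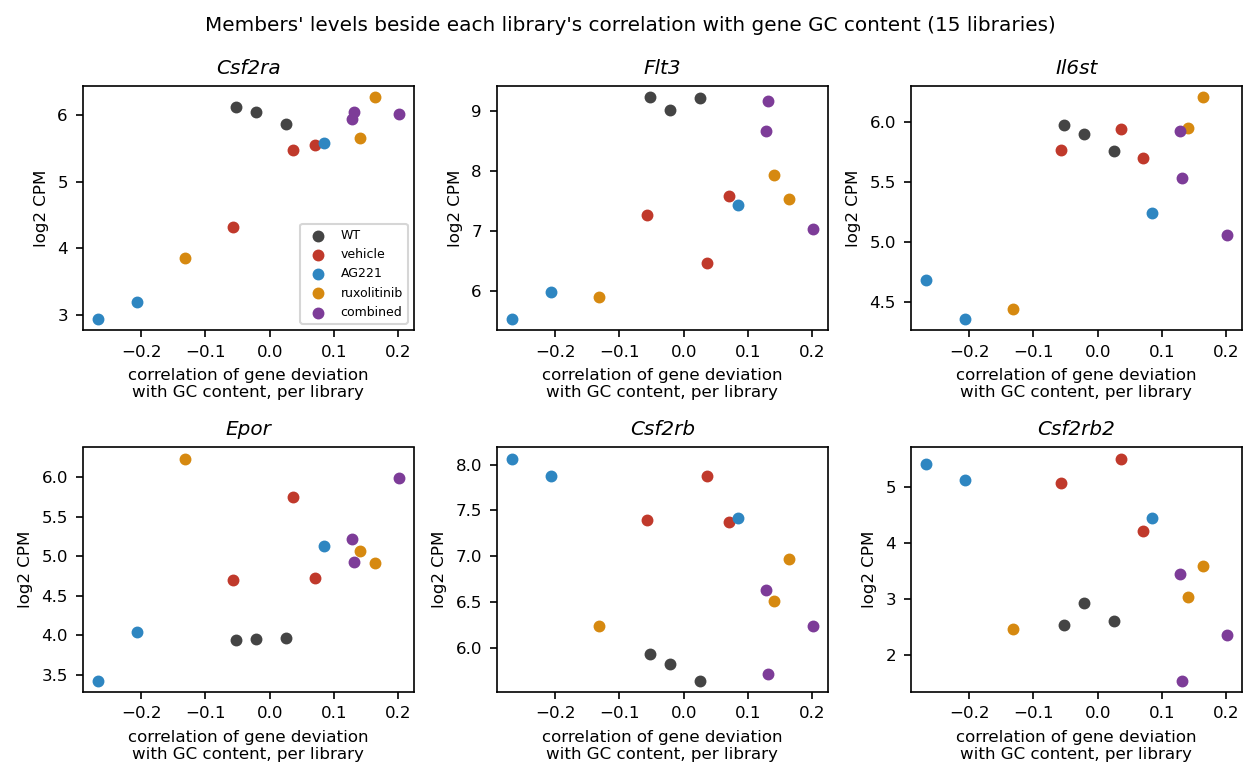
Log2 CPM of 6 members (vertical axes) against the correlation, within each library, of gene deviations from the mean with gene GC content (horizontal axes), with 1 point per library colored by group. The 3 leftmost libraries, AG221 A8, AG221 A10 and ruxolitinib A16, hold the lowest Csf2ra, Flt3 and Il6st, and Csf2rb and Csf2rb2 are high in all 3 AG221 libraries.

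Across the 15 libraries, which share groups and library composition, Csf2rb and Csf2rb2 ran most closely together of all pairs of members (Pearson r of log2 CPM 0.95), and Flt3 ran opposite to Csf2rb (r = -0.75). Flt3, Csf2ra, Il6ra and Il6st formed a set with r between 0.70 and 0.81. The tested genes most like each member were Notch1 (0.97) and Msrb3 (0.97) for Flt3, Gm37084 (0.93) and Ly6e (0.93) for Csf2rb, and Ifitm1 (0.93) and Tfap4 (0.90) for Csf2rb2. They were Hpcal1 and Impdh1 (both 0.99) for Csf2ra, Lrwd1 (0.94) and Oip5 (0.94) for Epor, and Zmiz1 (0.94) and Abr (0.93) for Il6ra. For Kit they were Mrtfb (0.91) and Zkscan1 (0.90), for Csf3r Nfam1 (0.91) and Atf7 (0.90), and for Il6st Nepro (0.92) and Akap10 (0.91). These are descriptions over 15 libraries with no test.

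The surrounding pathway was described with 93 genes in 5 lists, of which 81 were tested. For vehicle against WT, 24 were called (14 higher and 10 lower), or 29.6% beside 33.3% of all genes. None was called for combined against WT by edgeR (14 at an unadjusted p under 0.05, 5 by DESeq2). There, edgeR called 3.25% of all genes, and 25.4% had an unadjusted p under 0.05. Combined treatment against vehicle called 16 (6 higher and 10 lower), or 19.8% beside 12.5% of all genes. AG221 against vehicle called 4, all lower, or 4.94% beside 0.987%. Ruxolitinib against vehicle called 0 by edgeR (10 at an unadjusted p under 0.05, 2 by DESeq2), beside 0.0168% of all genes called by edgeR and 4.56% at an unadjusted p under 0.05. The AG221 count rested on single libraries, being 30 without AG221 A9 and 0 without any other 1 library of these groups. For combined against vehicle the count was 5 without combined B24, 9 without B25, and 8 and 9 without vehicle A1 and A3, and for vehicle against WT it was 7 without WT B30 and 12 without vehicle A1.

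Among ligands, 8 of 17 listed genes were tested, and the genes for G-CSF, GM-CSF, erythropoietin, interleukin-3 and interleukin-5 were below the filter and were not tested. Osm, encoding oncostatin M, which signals through gp130, was at 9.07, 9.81 and 10.3 CPM in WT, 142, 128 and 161 CPM with vehicle and 12.7, 16.7 and 13.2 CPM with combined treatment. It was 55.7, 118 and 85.8 CPM with AG221 and 113, 56.4 and 84.8 CPM with ruxolitinib, between the vehicle libraries and the rest. For combined treatment against vehicle its log2 fold change was -3.34 (standard error 0.29, edgeR adjusted p = 3.19e-05). Libraries of letter A were at least at 55.7 CPM for Osm and those of letter B at most at 16.7 CPM. This split by letter cannot be told apart from combined treatment. Il6, the ligand of Il6ra, was at 0.871, 1.65 and 0.738 CPM in WT and 4.10, 5.93 and 5.45 CPM with vehicle, against 2.14, 1.64 and 1.60 CPM with AG221, 1.27, 1.50 and 1.16 CPM with ruxolitinib and 1.67, 2.63 and 2.22 CPM with combined treatment. All 9 treated libraries were below the 3 vehicle libraries. It was called higher with vehicle than in WT (log2 2.24, edgeR adjusted p = 0.000939) and lower than with vehicle under AG221 (log2 -1.52, edgeR adjusted p = 0.0458) and combined treatment (log2 -1.24, edgeR adjusted p = 0.0193). The ruxolitinib difference, log2 -1.98, did not pass (edgeR adjusted p = 0.0985). Lif, another gp130 ligand, was lower with combined treatment than with vehicle (log2 -2.44, edgeR adjusted p = 0.0181). Kitl, the ligand of Kit, did not exceed 0.876 CPM in any library.

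Of the 22 other receptors tested, 6 were called for vehicle against WT (2 higher and 4 lower) and none for combined treatment or AG221 against vehicle by edgeR (4 and 5 at an unadjusted p under 0.05). In these comparisons 33.3%, 12.5% and 0.987% of all genes were called. The shares at an unadjusted p under 0.05 were 26.4% for combined treatment and 25.2% for AG221 against vehicle. Ghr, the growth hormone receptor, was 12.2, 13.5 and 10.2 CPM in WT and 3.57, 5.23 and 1.89 CPM with vehicle (log2 -1.74, edgeR adjusted p = 0.0195). Prlr and Osmr, the prolactin and oncostatin M receptors, were at most 0.150 CPM with vehicle and at 1.21 to 5.06 CPM in WT. Both were highest in WT B30, the library with 21689 genes at 10 counts or more, and the part of this difference between libraries in low levels was not tested.

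Of 15 receptor-proximal kinases and STATs, 5 were called for vehicle against WT (4 higher and 1 lower) and 3 for combined treatment against vehicle (1 higher and 2 lower). The shares over all genes were 33.3% and 12.5%. Jak2, the kinase bound by Epor and the beta chains, was at 32.3, 38.4 and 27.1 CPM in WT, 21.8, 20.1 and 24.1 CPM with vehicle and 47.3, 52.9 and 40.7 CPM with combined treatment. All 3 combined libraries were above all WT and vehicle libraries, while AG221 and ruxolitinib libraries ran from 20.8 to 31.5 CPM. Jak2 was higher with combined treatment than with vehicle (log2 1.09, standard error 0.164, edgeR adjusted p = 0.0021).

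The 17 adaptor and phosphatase genes and the 19 tested genes of feedback, turnover and shedding held changes in both directions. Sh2b3, which encodes the JAK2 signaling adaptor LNK, an inhibitor, was 22.1, 33.9 and 20.6 CPM in WT, 7.48, 6.83 and 7.498 CPM with vehicle and 46.0, 32.0 and 23.0 CPM with combined treatment. The difference of combined treatment from vehicle was log2 2.21 (standard error 0.338, edgeR adjusted p = 0.00229). Grb2, an adaptor to RAS, was likewise higher (log2 2.31, edgeR adjusted p = 0.00522), as was Socs5, a feedback inhibitor (log2 1.86, edgeR adjusted p = 0.00556). For Sh2b3, libraries of letter A were at most at 15.2 CPM and those of letter B at least at 20.6 CPM. For Grb2 these values were 33.0 and 35.6 CPM, and for Socs5 12.2 and 19.1 CPM. This split by letter cannot be told apart from combined treatment. Cish, a STAT5-induced inhibitor, was lower with combined treatment than with vehicle (log2 -1.82, edgeR adjusted p = 0.035). It was at 17.7, 73.4 and 13.9 CPM with vehicle, where A3 alone stood high, and 7.36, 15.1 and 7.12 CPM with combined treatment. With AG221 against vehicle, the 3 feedback, turnover and shedding genes called were Adam10, a sheddase that can cleave receptors, Socs6 and Cblb, an E3 ligase for activated receptors. Adam10 was at 431, 525 and 567 CPM with vehicle and 171, 328 and 193 CPM with AG221 (log2 -1.14, edgeR adjusted p = 0.0458).

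List medians are given beside those of all genes tested. For combined treatment against vehicle the median log2 fold change was -0.65 for ligands, -0.10 for other receptors, -0.16 for kinases and STATs, 0.17 for adaptors and phosphatases and -0.29 for feedback, turnover and shedding, against 0.04 for all genes. For vehicle against WT these were 0.32, -0.56, 0.16, 0.10 and 0.11, against -0.09.

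**Figure D4:**
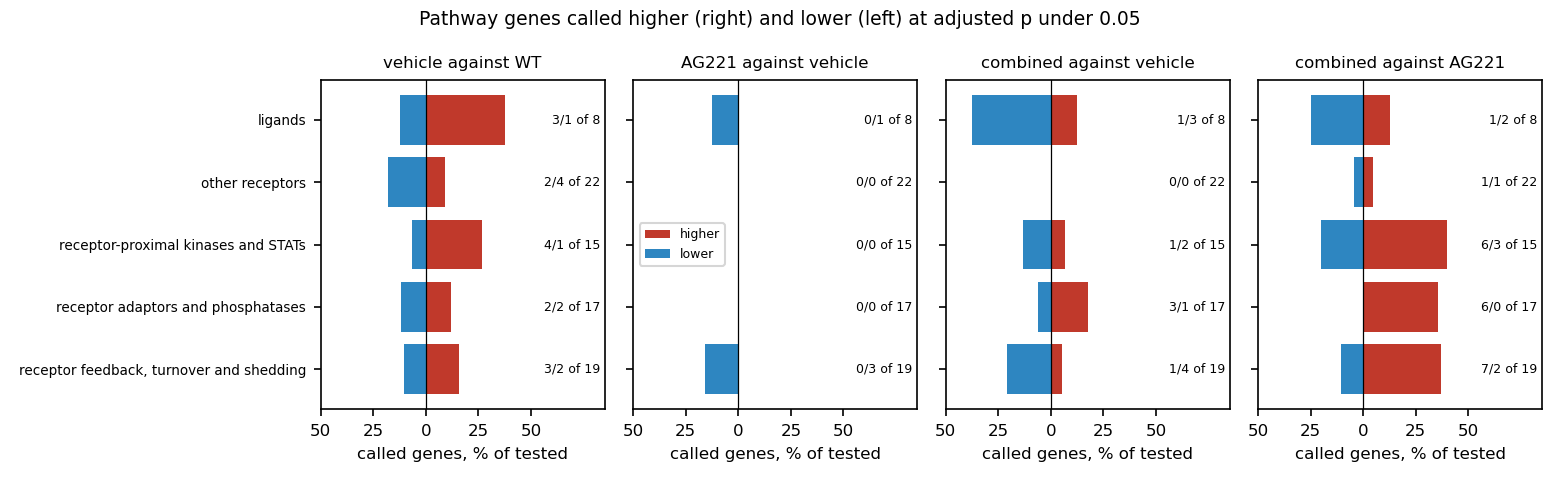
Share of each list's tested genes called higher (red, to the right) and lower (blue, to the left) at an edgeR adjusted p-value under 0.05 in 4 comparisons, with counts of higher and lower genes out of those tested at the right of each panel. Combined treatment against vehicle calls 16 of 81 genes, none of them among the other receptors, and AG221 against vehicle calls 4, all lower.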

How the data were processed

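Libraries were made from CD45.2+ LSK cells after SMARTer amplification and sequenced in pairs of 50-base reads. Per the labels and the study's methods, the authors aligned reads to mm10 with STAR 2.5.1a and its counting mode on the Ensembl gene model, and the deposited raw counts per gene are used here without change. The Ensembl release and strand setting are not given in the sources used here. A further deposited table, of counts the authors normalized with DESeq2 (1.6.3), was not used. Groups came from the treatment labels, with 3 libraries in each. No count line for reads outside genes is present.

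Gene IDs were matched to GENCODE M21 (GRCm38), which gave symbols for 44585 of 45232 IDs. Counts were normalized by TMM, filtered with filterByExpr and tested with edgeR 4.0.16 (R 4.3.3) by the quasi-likelihood test in 1 fit of 15 libraries, with Benjamini-Hochberg adjustment over 17834 genes and a threshold of 0.05. CPM use TMM-scaled library sizes, and fitted fold changes can differ from ratios of mean CPM. The common biological coefficient of variation was 0.313, which limits what 3 libraries can detect. The fit was tested on simulated data. Alternatives were DESeq2 1.42.0, other normalizations and filters, fits on the compared groups alone or without X and Y genes, leaving out libraries, summing both beta chain genes, longest transcripts as lengths, and, chosen after seeing the data, GC content offsets and leaving out 3 libraries.

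The 9 members, all named, and the lists were chosen with earlier results of these data known. From each pathway list, genes could be named if among the 3 called genes with the largest absolute log2 fold change in vehicle against WT or a treatment against vehicle, marker genes if they stood beside a member, and for each member the 2 genes with the highest Pearson correlation. The count table was checked for shared sequence with 50-base words. Xist and Ddx3y were named as checks. The result for 1 gene of the kinase and STAT list is not reported here.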

Additional observations from a re-analysis of the deposited data

Results flagged for a closer look

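The change with AG221 differed with and without ruxolitinib for 8 of the named pathway genes and for none of the 9 receptor genes (edgeR interaction test, adjusted p under 0.05, positive where AG221 added to ruxolitinib gave the higher change). This test called 8.42% of all genes. The named pathway genes had been picked by calls in comparisons that share vehicle, AG221 and combined libraries with this test. Their count is therefore not independent of that choice and cannot be weighed against the 9 receptor genes. The interaction was 2.26 on the log2 scale for Il6 (adjusted p = 0.0272), 1.24 for Socs6 (0.033), -1.84 for Osm (0.0291), 6.10 for Ctf1 (0.038), 2.13 for Grb2 (0.0478), 1.63 for Sh2b3 (0.0478), 1.37 for Gab1 (0.0414) and 4.58 for Socs1 (0.038). For Osm the change was -0.73 with AG221 alone and -2.58 with AG221 added to ruxolitinib. Ctf1 with AG221 or ruxolitinib alone, and Socs1 in AG221 A8 and A10, were at or near the floor of 3 counts, so that these fitted values depend on the prior count. All of these calls depended on single libraries. Over the pathway lists, 10 interactions were called among 81 tested genes, or 12.3% beside 8.42% of all genes. Leaving out 1 library gave from 0 (without vehicle A3, vehicle A4, AG221 A10, ruxolitinib A17, combined B24 or combined B25) to 38 (without AG221 A9). The combined group alone among the 4 bears replicate letter B, which cannot be told apart from the interaction.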

How the results depend on the processing

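Alternatives were run for the 33 log2 fold changes of members with an unadjusted p under 0.05, and none of these reversed. The number of members called moved by over 1.5 times in these cases. For vehicle against WT (3), it was 5 with no filter, 5 in a fit of those groups alone, 5 with DESeq2 and 6 without AG221 A8, AG221 A10 and ruxolitinib A16. Without those 3 libraries it was 2 for AG221 against WT, 1 for ruxolitinib against WT, 1 for combined against WT, 0 for combined against AG221 and 1 for combined against ruxolitinib (Csf3r), where the AG221 group is 1 library, the spread comes from the other groups and calls can be lost through fewer libraries alone. A fit of the compared groups alone gave 2 for combined against AG221 and 2 for combined against WT. For combined against WT, no filter and DESeq2 gave 1 each, for ruxolitinib against vehicle DESeq2 gave 1, and for the interaction upper quartile normalization, at least 10 counts in every library and DESeq2 gave 1 each. The cause of the other moves was not tested.

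Leaving out 1 library gave 0 to 3 members called for AG221 against vehicle, 3 to 8 for AG221 against WT, 2 to 6 for combined against AG221, 0 to 3 for the interaction, 0 to 3 for ruxolitinib against WT and 2 to 3 for vehicle against WT. The highest counts in the AG221 comparisons and the interaction came without AG221 A9, and ruxolitinib against WT gave 0 without any 1 WT library. Combined against vehicle gave 2 throughout. No paired analysis was possible because the replicate names are not shared between groups. Lengths from the longest transcript put Csf2rb at 11.4 CPM per kb in WT in place of 7.68. No alternative depth was run.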
